A study of Arabidopsis thaliana with 21 samples.

Results

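The probe sets described here are those that full phosphate resupply (1 mM) raised in phosphate-starved Arabidopsis. An equal-time arsenate treatment at the lower dose of 30 µM left them within a 2-fold band of the control. Ion and dose both differ between these 2 treatments and cannot be told apart by this rule. The members are 150 of the 22746 Affymetrix ATH1 probe sets, after 64 control probe sets were set aside. Each had a mean over 3 arrays at least 1 log2 unit (2-fold) higher with 1 mM phosphate than in the control, and an arsenate mean less than 1 log2 unit from the control in either direction. The members were thus chosen by the measured values of those 9 arrays, and their 1 mM phosphate and arsenate differences from control are given as a description, with no test read from them. The 3 arrays with 30 µM phosphate took no part in the choice and give the dose step.

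All 4 groups were wild-type plants of the Col-0 accession with 3 independent biological samples each, and no transgene was involved. Every plant had grown for 7 days on Johnson medium with 1 mM phosphate and then for 2 days on medium without phosphate, so the controls were phosphate-starved too. The plants were moved to liquid medium for 8 h with no supplement (control), 30 µM arsenate, 30 µM phosphate or 1 mM phosphate. For the highest dose the description label gives 30 µM, but 3 other labels (title, source name, characteristics) give 1 mM, which was used. The labels say plants and name no organ. The tables used here do not pair ATH1 probe sets with genes, so members are given by probe set ID or by rank, no gene function is assigned to any of them, and tissue markers could not be checked. For the same reason the members could not be followed on the 9 NimbleGen arrays taken at 1.5 h, which are not analysed here.

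As background, phosphate-starved plants switch on genes for phosphate uptake, recycling and membrane lipid replacement through the transcription factor PHR1. SPX proteins, which sense inositol pyrophosphates, hold PHR1 back when phosphate is ample, and phosphate resupply switches that programme off. Other transcripts are lower in starved plants and recover on resupply. Arsenate is a chemical analog of phosphate that enters roots through the same transporters but cannot replace phosphate in stable metabolites.

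Of all probe sets, 181 were at least 1 log2 unit higher with 1 mM phosphate than in the control and 486 were at least 1 log2 unit lower. Of the 181, 23 were lower with arsenate by 1 log2 unit or more, 8 were higher by at least as much, and the other 150 are the members. Most members lay close to the threshold: 114 had a 1 mM difference under 1.5, 29 lay from 1.5 to under 2, and 7 reached 2 or more. The median was 1.26 and the largest 3.05 (log2). On the signal scale, 117 of the 150 members had a control mean above the median of all probe sets and 2 lay below the lower quartile (3.68). Some members described below, such as 252882_at (4.08), had control means under 4.37, the 40 percentile of all values. Probe sets whose ID ends in _s_at, a type designed to match several transcripts, were 8 of the 150 (5.33%, against 4.11% of all probe sets). In bulk plant samples, fewer cells of a type and less RNA per cell cannot be told apart.

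The members' levels were set against the control mean of each member, array by array. With 1 mM phosphate the median member lay 1.35, 1.25 and 1.22 above the control mean on replicates 1 to 3. With 30 µM phosphate these medians were 0.03, 0.53 and 0.35. With arsenate they were -0.25, -0.29 and -0.40, and on the 3 control arrays -0.20, 0.21 and -0.01. By these medians the 1 mM arrays stood clear of all others, the 3 arsenate arrays lay below all 3 controls, and the 30 µM arrays spread from within the control range to above it. The median of all probe sets lay between -0.04 and 0.02 on the same scale on all 12 arrays.

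**Figure D1:**
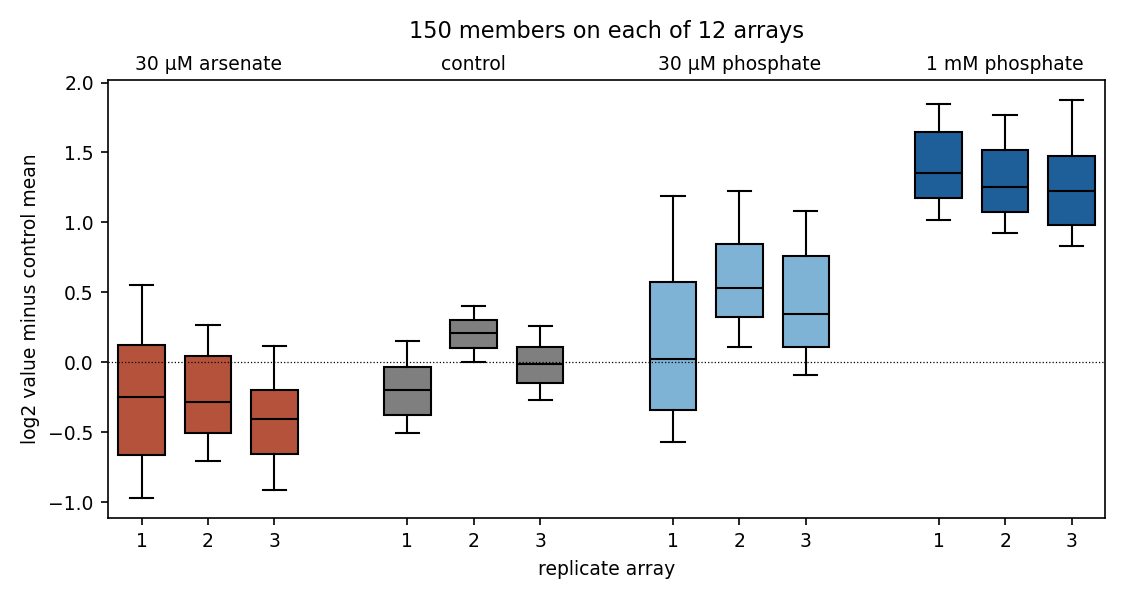
Log2 value minus the mean of the 3 control arrays for the 150 members, on each of the 12 arrays. Boxes span the quartiles with the median as a line, and whiskers the 10th to 90th percentiles. The 1 mM phosphate medians lie at 1.22 to 1.35 and the arsenate medians at -0.40 to -0.25.

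The member with the largest 1 mM difference was 259842_at. Its log2 values were 5.55, 5.66 and 5.56 in the control, 6.67, 5.82 and 5.67 with arsenate, 7.93, 7.96 and 8.14 with 30 µM phosphate and 8.52, 8.93 and 8.48 with 1 mM phosphate. The phosphate arrays of both doses lay above every control and arsenate array, and all arsenate arrays lay above the controls, replicate 1 by about 1 log2 unit and the other two narrowly. Its 30 µM phosphate difference was 2.42 ± 0.22 (log2, SE; limma adjusted p = 0.00094), the largest of any member at that dose. The further step to 1 mM, 0.63 ± 0.22, did not pass (limma adjusted p = 0.088), although it did after centring on array medians (0.042), with array weights (0.03) and on the compared groups only (0.037). At equal dose, phosphate exceeded arsenate by 1.96 ± 0.22 (limma adjusted p = 2.7e-05).

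The second member by 1 mM difference, 252882_at, was more variable. Its values were 4.43, 4.19 and 3.62 in the control, 3.78, 3.56 and 3.36 with arsenate, 7.60, 5.41 and 5.12 with 30 µM phosphate and 6.67, 6.87 and 6.30 with 1 mM phosphate. Every phosphate array lay above every control and arsenate array, and the 30 µM replicate 1 array was the highest of all 12. The 30 µM difference of 1.96 ± 0.50 missed the threshold (limma adjusted p = 0.053). Its call was gained under the replicate block (0.019), array weights (0.019), a trended prior variance (0.029), a filter on low values (0.031) and centring (0.047), and without 30 µM replicate 1 (difference 1.18, adjusted p = 0.019) or replicate 3 (2.42, 0.048). At equal dose, phosphate exceeded arsenate by 2.48 ± 0.50 (limma adjusted p = 0.0023).

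The fourth member by 1 mM difference, 262373_at, ran the other way at the low dose. Its values were 4.44, 5.19 and 5.75 in the control, 4.56, 5.67 and 6.54 with arsenate, 3.90, 4.27 and 3.98 with 30 µM phosphate and 7.58, 7.40 and 7.23 with 1 mM phosphate. All 30 µM arrays lay below all controls and all 1 mM arrays above every other array. The 30 µM difference from control was -1.08 ± 0.42 and did not pass (limma adjusted p = 0.22, 0.03 with array weights). The step from 30 µM to 1 mM was 3.35 ± 0.42 (limma adjusted p = 0.0018), the largest such step of any probe set on the array. This member and the next one below were named for the lowest 30 µM differences among the members. The rule also used their 1 mM arrays, so both ends of this step were selected on. The same choice of low 30 µM values enters their equal-dose difference from arsenate. At equal dose this member was lower with phosphate than with arsenate by 1.54 ± 0.42 (limma adjusted p = 0.014). Without arsenate replicate 3 the adjusted p was 0.054. The member next lowest at 30 µM, 260877_at, had values of 7.96, 9.23 and 9.44 in the control, 7.68, 8.36 and 8.52 with arsenate, 7.78, 8.97 and 8.0 with 30 µM phosphate and 10.53, 10.07 and 9.28 with 1 mM phosphate. Its 1 mM replicate 3 array overlapped the controls, and its 30 µM difference was -0.63 ± 0.44 (limma adjusted p = 0.57). The step to 1 mM, 1.71 ± 0.44, passed (limma adjusted p = 0.032) but was lost without 30 µM replicate 1 (0.11) or 3 (0.094) or without 1 mM replicate 1 (0.13) or 2 (0.081).

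**Figure D2:**
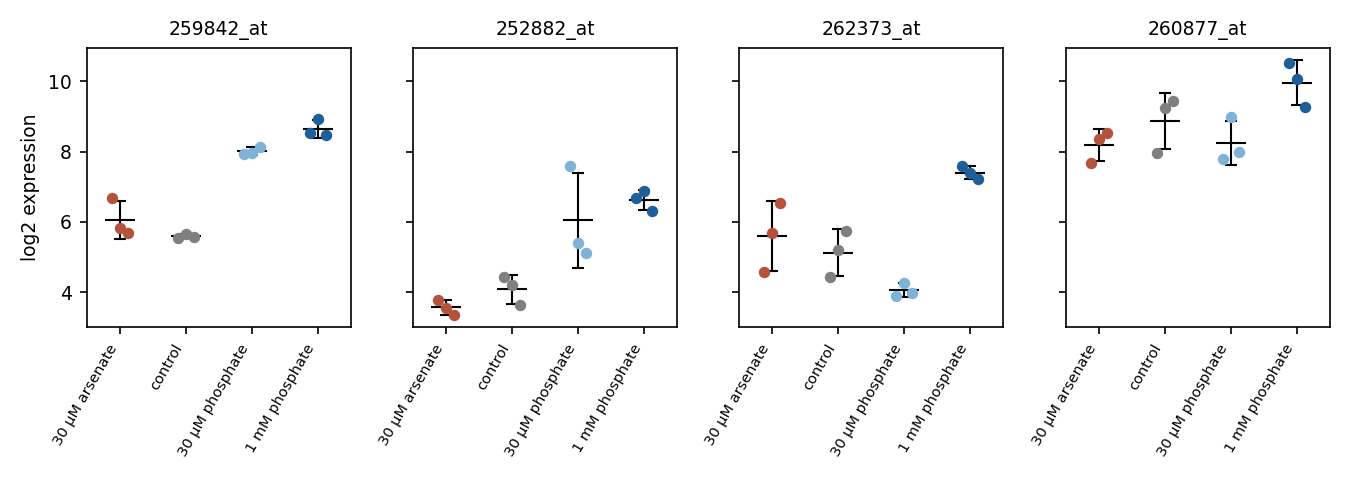
Log2 expression of the 4 probe sets named in the text on all 12 arrays. Points are single arrays in the order of replicates 1 to 3, the bar is the mean and the whiskers are the SD (n = 3). The first 2 panels show members already high at 30 µM phosphate and the last 2 members that were not.

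The dose comparison asked how much of the 1 mM response was already present at 30 µM. Among the 150 members, 119 had a 30 µM mean above the control and 31 below it, and the median difference was 0.38 (quartiles 0.05 and 0.72), against a median of 0.00 over all probe sets. The 30 µM difference amounted to a median of 28.3% of the 1 mM difference on the log2 scale (quartiles 3.96% and 51.0%). The rule favours high 1 mM differences, which lowers this percentage, while the shared control arrays act on both differences. In limma's fit over all probe sets, 20 members rose at 30 µM and 0 fell at an adjusted p under 0.05, where 2.35% of all probe sets were called higher and 1.52% lower. At an unadjusted limma p under 0.05, 1 member was lower, where 6.84% of all probe sets were. The control arrays that enter this difference also entered the choice of members, so it is not independent of the rule. The choice tilts the members' 30 µM differences from control upward, and with them the count of 20. The count of 20 was 31 (against 4.19% of all probe sets) when the replicate number was a block in a fit without the 1 mM arrays. It was 30 without 30 µM replicate 1 (against 2.33%), 12 without control replicate 2 (0.637%) and 10 without control replicate 3 (0.853%). Without 30 µM replicates 2 and 3 it was 13 (1.2%) and 10 (0.576%). Against the control of the same number the median 30 µM differences were 0.23, 0.34 and 0.42.

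Members differed widely in this step. There were 18 members with a 30 µM difference of at least 1, where 0.404% of all probe sets reached it, and for these the median 30 µM difference was 92.7% of the 1 mM difference. Another 39 lay from 0.5 to under 1, 62 from 0 to under 0.5 and 31 below 0. The median 1 mM difference, which the rule holds at 1 or more, was 1.45, 1.36, 1.27 and 1.19 in that order of classes, against quartiles of 1.1 and 1.47 over all members. Both differences share the control arrays, and the rule and the class limits act on the percentage. All 3 arrays with 30 µM phosphate lay above all 3 controls for 51 members (34.0%), where this held for 10.4% of all probe sets. The upward tilt from the shared controls also favours the counts of 18 and 51.

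The upper step, from 30 µM to 1 mM, rose for 93 members and fell for 0 in limma's fit, where 4.38% of all probe sets were called higher and 5.49% lower. At an unadjusted limma p under 0.05, 0 members were lower, where 14.5% of all probe sets were. The 1 mM arrays that enter this step also chose the members. The median step was 0.99, against 0.02 over all probe sets, and the count was 47 without 1 mM replicate 1 (against 1.29% of all probe sets). The arrays of both doses did not overlap, with 1 mM higher, for 109 members (16.5% of all probe sets). Counting both steps, 90 members passed the upper step and not the lower, 17 the lower and not the upper, 3 both and 40 neither. The shares of all probe sets with these combinations were not computed. Choosing members by the 1 mM arrays favours the upper step.

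Members of each kind show what these counts hold. The member second at 30 µM had control values of 5.07, 4.60 and 4.59, arsenate values of 5.61, 4.49 and 4.31, 30 µM values of 6.52, 6.70 and 6.93 and 1 mM values of 6.12, 6.53 and 6.39. Its low-dose arrays lay above its controls by 1.96 ± 0.28 (limma adjusted p = 0.0041) and its 1 mM mean lay below its 30 µM mean, by a difference of -0.37 ± 0.28 that did not pass (limma adjusted p = 0.43). It is 1 of 3 members with a lower mean at 1 mM than at 30 µM. A second of these had control values of 6.39, 6.76 and 6.65, 30 µM values of 7.55, 7.99 and 8.20 and 1 mM values of 7.78, 7.62 and 7.55, and rose at 30 µM by 1.31 ± 0.17 (limma adjusted p = 0.0026). The member ranked 5 at 30 µM had control values of 4.09, 3.99 and 4.34, 30 µM values of 5.85, 5.40 and 5.56 and 1 mM values of 6.23, 5.36 and 5.49. Its low-dose rise was 1.46 ± 0.21 (limma adjusted p = 0.0042), and its 2 phosphate groups overlapped.

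Other members passed the upper step and not the lower. The member with the smallest adjusted p for the upper step had control values of 4.09, 4.17 and 4.15, arsenate values of 4.04, 4.2 and 4.09, 30 µM values of 4.25, 4.38 and 4.39 and 1 mM values of 5.39, 5.30 and 5.36. Its 1 mM arrays stood clear of the other 9, and its 30 µM arrays lay above every control and arsenate array by a smaller margin, with an upper step of 1.01 ± 0.084 (limma adjusted p = 0.00012) and a lower step of 0.20 ± 0.084 that did not pass (0.26). The next smallest had control values of 5.6, 6.05 and 5.45, 30 µM values of 5.67, 5.99 and 5.81 and 1 mM values of 7.44, 7.35 and 7.5, an upper step of 1.61 ± 0.15 (limma adjusted p = 0.00021) and a lower step of 0.12 ± 0.15 (0.77). A member that passed both steps had control values of 3.47, 3.5 and 3.52, arsenate values of 3.35, 3.28 and 3.78, 30 µM values of 4.30, 4.23 and 4.08 and 1 mM values of 5.26, 5.39 and 5.24. Its control mean of 3.5 lay below the lower quartile of all probe sets (3.68), so its lower step starts near the floor. Its 2 steps were 0.71 ± 0.13 (limma adjusted p = 0.011) and 1.09 ± 0.13 (0.0012). The call of the lower step was lost without control replicate 2 (limma adjusted p = 0.05). None of its phosphate arrays overlapped its control or arsenate arrays.

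**Figure D3:**
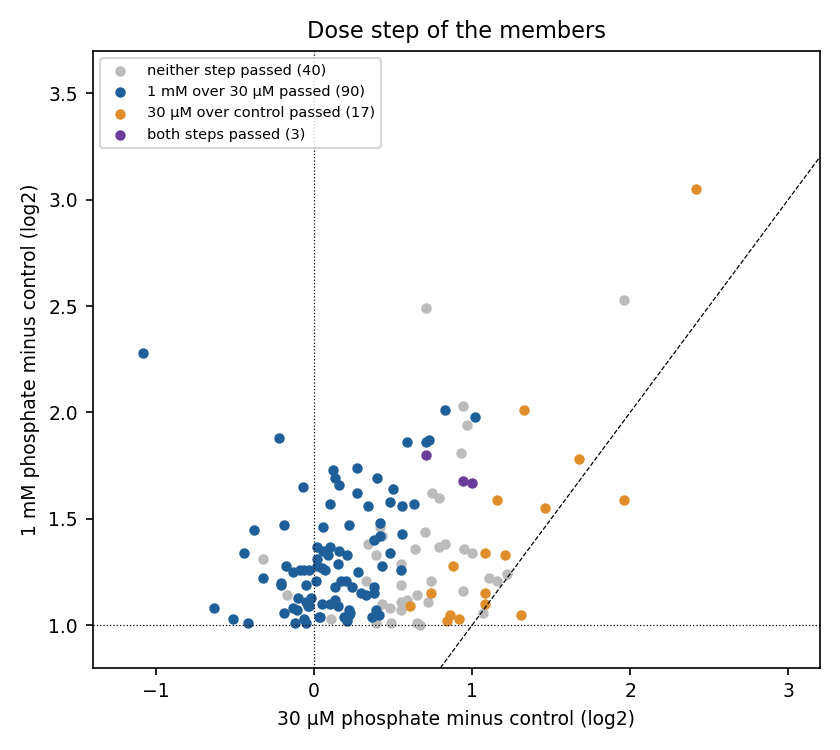
The 150 members by their 30 µM phosphate minus control difference (horizontal, log2) and their 1 mM phosphate minus control difference (vertical, log2). Colours give which of the 2 dose steps passed a limma adjusted p of 0.05, the dashed line marks equal differences and the dotted lines mark 1 on the vertical axis and 0 on the horizontal axis. Most members lie well left of the dashed line, and 3 lie right of it.

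The rule allowed the members to differ from control with arsenate by up to 1 log2 unit, and their placement within that band is given as a description. The values over all probe sets were not limited to the band. The arsenate mean lay below the control for 118 members and above it for 32, with a median of -0.30 (quartiles -0.56 and -0.05), while 53.4% of all probe sets lay below the control and their median was -0.02. In limma's fit 4 members (2.67%) were called higher with arsenate and 20 (13.3%) lower, where 10.8% of all probe sets were called higher and 13.2% lower. All arsenate arrays lay below all controls for 39 members (26.0%, against 19.5% of all probe sets). Since the rule used this contrast, nothing is read from these counts. The 20 became 48 with the replicate number as a block in a fit without the 1 mM arrays (against 16% of all probe sets). They became 39 with array weights (16%), 6 without control replicate 2 (10.5%), and 11 without control replicate 3 (10%) or arsenate replicate 3 (11.1%). The 4 became 2 without control replicate 1 (11.2%) or 3 (8.78%) or without arsenate replicate 2 (9.79%).

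The mean order arsenate below control below 30 µM below 1 mM phosphate held for 88 members (58.7%), against 7.97% of all probe sets, though the choice of members fixes part of it. The member with the lowest arsenate difference had control values of 5.10, 5.15 and 4.68, arsenate values of 3.86, 4.00 and 4.16, 30 µM values of 6.0, 5.51 and 5.07 and 1 mM values of 6.29, 5.95 and 6.25. Its arsenate arrays lay below all controls, and its 30 µM replicate 3 array fell within the control range.

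Values are given for the 4 members called higher with arsenate as a description only. One had control values of 4.51, 5.25 and 4.87, arsenate values of 5.43, 5.74 and 6.18, 30 µM values of 5.20, 5.22 and 5.01 and 1 mM values of 6.54, 6.75 and 6.56. Another had control values of 4.04, 3.90 and 3.74, arsenate values of 4.59, 4.55 and 4.65, 30 µM values of 3.77, 4.09 and 3.90 and 1 mM values of 4.97, 4.63 and 5.19. In both, arsenate at 30 µM lay above every control array while phosphate at 30 µM overlapped the controls, and the 1 mM phosphate mean was the highest. The other 2 had arsenate differences of 0.56 and 0.55.

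The equal-dose comparison asked how 30 µM phosphate differed from 30 µM arsenate. Here 70 members were higher with phosphate and 3 lower in limma's fit, where 17.8% of all probe sets were called higher and 13.4% lower. The arsenate arrays entered the choice of members only through the bound of 1 log2 unit, and the 30 µM phosphate arrays not at all. The shares over all probe sets were not limited to that bound. The members' median differences from control were -0.30 with arsenate and 0.38 with 30 µM phosphate, and both enter this comparison. The median difference was 0.62 (quartiles 0.37 and 0.95), against 0.00 over all probe sets, and 139 of the 150 members had the higher mean with phosphate. The arrays did not overlap, with phosphate higher, for 73 members (22.0% of all probe sets). The smallest adjusted p belonged to a member with arsenate values of 6.87, 6.40 and 6.25 and 30 µM phosphate values of 8.34, 7.98 and 8.25, a difference of 1.68 ± 0.17 (limma adjusted p = 1.3e-05). Its control values of 7.26, 7.25 and 6.81 lay between and overlapped the arsenate values, and its 1 mM values of 8.21, 8.24 and 8.33 overlapped those at 30 µM.

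The 3 members lower with phosphate at equal dose were 262373_at and the 2 members just described with arsenate above the controls. Their differences were -1.54 ± 0.42, -0.64 ± 0.20 (limma adjusted p = 0.029) and -0.68 ± 0.14 (0.0029). For the 3 together the count was 6 with array weights (against 16.6% of all probe sets) and 5 with the replicate block on all arrays (14.4%). It was 5 without arsenate replicate 1 (13.8%) and 1 without arsenate replicate 3 (11.7%). The second was lost on the compared groups only (0.051) and without 1 of 4 arrays: arsenate replicate 2 or 3 or 30 µM phosphate replicate 2 or 3, with adjusted p-values up to 0.13.

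**Figure D4:**
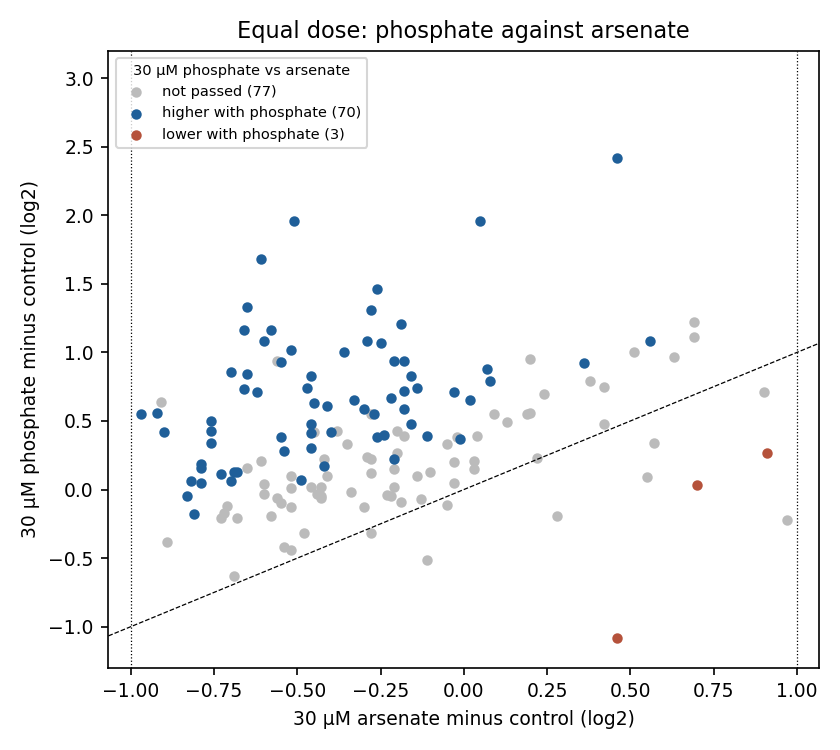
The 150 members by their 30 µM arsenate minus control difference (horizontal, log2) and their 30 µM phosphate minus control difference (vertical, log2). Colours give the limma call between both treatments, the dashed line marks equal differences and the dotted lines the bounds of the rule at -1 and 1. The 70 members higher with phosphate lie above the dashed line and the 3 lower ones below it.

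The spread between replicates was set beside that of other probe sets as a description, since a rule on differences of 3-array means can itself favour variable probe sets in the control, arsenate and 1 mM groups. The members' median SD (n = 3) was 0.264 in the control, 0.268 with arsenate, 0.344 with 30 µM phosphate and 0.232 with 1 mM phosphate. For the 6041 other probe sets with control means in the members' interquartile range of 5.15 to 7.29, these medians were 0.179, 0.21, 0.196 and 0.172. That set was matched on control level only, and the members' median level was 7.6 with 1 mM phosphate. Part of this spread was shared: replicate 1 was the lowest of the 3 controls for 97 members (64.7%, against 37.6% of all probe sets) and the lowest of the 30 µM arrays for 107 (71.3%, against 42.7%). Replicate 2 was the highest of the controls for 102 members (68.0%, against 28.2%) and the highest of the 30 µM arrays for 82 (54.7%, against 33.1%). With 1 mM phosphate, replicate 1 was instead the highest array for 82 members (54.7%, against 32.1%). The part of this in the dose step was not tested beyond the values without single arrays and with the replicate block given above.

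For 137 members the 1 mM difference itself passed limma's test, where 4.63% of all probe sets were called higher, and for 147 the 1 mM and control arrays did not overlap (15.6% of all probe sets). The rule chose on this difference and so favours both counts, and nothing is read from them. The 13 that did not pass had adjusted p-values from 0.053 to 0.24, and 10 of them still had arrays that did not overlap. The largest of these p-values belonged to a member with control values of 6.97, 8.20 and 7.18, 30 µM values of 9.61, 7.80 and 6.87 and 1 mM values of 7.95, 9.03 and 9.44, whose phosphate groups both overlapped the control. The third member by 1 mM difference, at 2.49, had arsenate values of 7.70, 9.41 and 6.97 against control values of 6.30, 7.87 and 7.22, so that its place within the arsenate band (0.90) rests on arrays that differ from each other by more than the bound.

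The thresholds cut through a continuous range. The 3 members just inside the phosphate threshold had 1 mM differences of 1.003, 1.007 and 1.007, and the 3 probe sets just outside all had 0.997, with 30 µM differences of 0.217, -0.343 and 0.72. At the lower arsenate bound the nearest members had -0.97, -0.917 and -0.913 and the nearest probe sets outside -1.003, -1.01 and -1.033. At the upper bound the nearest members had 0.973, 0.907 and 0.897 and the nearest outside 1.007, 1.037 and 1.16. The 23 probe sets left out at the lower bound had a median 30 µM phosphate difference of 0.22 and the 8 left out at the upper bound one of 0.63, on either side of the members' 0.38.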

How the data were processed

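The values are the log2 expression values the authors deposited for 12 ATH1 arrays, 1 sample per array. They were summarised with RMA per the submitters' processing notes, and no version of it was found in the labels. RMA usually includes a normalization between arrays, which reduces changes shared by most transcripts, and it compresses differences near the floor. The deposited arrays did not have 1 common distribution, and their medians lay between 5.02 and 5.18. Precision is limited by having 3 arrays in each group. No column of the table was left unused. The NimbleGen table, also deposited log2 values, was not used, because no table given here pairs ATH1 probe sets with genes. The planned comparisons at 1.5 h, gene lists and promoter searches were therefore not run.

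From these values the members were selected by group means, and all contrasts came from 1 limma model (limma 3.58.1 in R 4.3.3) of the 4 groups with moderated two-sided tests. P-values were adjusted by Benjamini-Hochberg over 22746 probe sets, and a call means an adjusted p under 0.05. The fit was tested on simulated data with independent noise on each array. That simulation had neither the spread shared by same-numbered arrays nor a choice of members, so it says nothing on the member counts. The labels call the samples independent biological samples. The members, rule and alternatives were chosen with earlier results of these data known. The planned rule names by ID the 2 members with the largest 1 mM difference and the 2 with the largest and smallest 30 µM difference. The one that was second at 30 µM is given by rank, and the further members given by rank were chosen after their values were seen. Where a member was picked by a difference, the p-values that rest on the same arrays are favoured by that choice.

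Replicate numbers in the sample titles were checked for pairing from deviations from group means over all probe sets. Same-numbered arrays of control, arsenate and 30 µM phosphate correlated at 0.13 to 0.49, above the 0.1 required, and those of 1 mM phosphate with the other groups at -0.20 to 0.07. A fit with the block but without the 1 mM arrays was added after the data were seen. The results were also computed with array weights, a trended prior variance, the compared groups only, a filter at the 40 percentile of all values, quantile normalization, centring on array medians, and each array left out in turn.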

Additional observations from a re-analysis of the deposited data

How the results depend on the processing

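The rule gave 199 members after a further quantile normalization and 196 after centring on array medians, holding all 150, and 130 to 224 when a control, arsenate or 1 mM array was left out, holding 108 (without control replicate 1) to 148 of the 150. It gave 361 members at a rise of 0.8, 36 at 1.5 and 89 with an arsenate bound of 0.5. In what follows, percentages in brackets are the shares of all probe sets with the same call under the same setting. Members higher at 30 µM phosphate than in the control (20, 2.35%) numbered 43 with array weights (6.31%). They numbered 31 with the replicate block on the arrays without 1 mM phosphate (4.19%) and 24 with the replicate block on all arrays (3.07%). Without single arrays they numbered 10 to 30 (0.576% to 2.37%). Members lower with arsenate (20, 13.2%) numbered 39 with array weights (16%) and 48 and 29 with those 2 replicate blocks (16% and 14.4%). Without single arrays they numbered 6 to 29 (10% to 12.6%), and members higher with arsenate (4, 10.8%) 2 to 4 (8.75% to 11.2%). Members higher at 1 mM than at 30 µM numbered 47 to 92 without single arrays (1.29% to 4%). Members higher with 30 µM phosphate than with arsenate numbered 54 to 90 without single arrays (14.6% to 18.1%). Under the other alternatives these numbered 58 to 100 (14.7% to 26.6%). The replicate block moved no other count of higher members by over 1.5 times. Members lower with phosphate at equal dose went from 3 (13.4%) to 5 (14.4%) with the block on all arrays, and to 6 (16.6%) with array weights.

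Centring on array medians moved the share of higher calls over all probe sets from 60.7% to 50.9% for 30 µM phosphate minus control and from 44.4% to 64.9% (54.8% after quantile normalization) for 1 mM minus 30 µM, where the median of all probe sets went from 0.02 to 0.12. The members' median for that step was then 1.09. Differences near 0 that had not passed changed sign. For 260877_at, 30 µM phosphate minus arsenate (0.06) was 0.00 after centring, -0.05 with array weights and -0.30 to 0.30 without single arrays. The upper step without single arrays was -0.18 to 0.26 for the member ranked 5 at 30 µM and -0.03 to 0.15 for that with the smallest p at equal dose. The lower step was 0.00 to 0.30, -0.06 to 0.10 (-0.03 after centring) and -0.09 to 0.32 for 3 members that passed the upper step. The causes were not tested. The planned 1.5 h comparisons and gene lists were not run.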
